A study of Rattus norvegicus with 12 samples.

Results

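Blood transcripts of 7 genes for the red cell membrane and its blood group antigens (Rhd, Kel, Add2, Dmtn, Tmod1, Slc4a1 and Ank1) were measured in 2 rat strains with and without chronic stress. The genes were taken by symbol from the 17337 genes in the count files, by their textbook roles in the membrane skeleton and blood groups, with earlier results of these data known. All 7 were present, and all 7 were among the 2781 genes with enough counts to be tested.

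A red cell keeps its shape and its ability to deform through a protein network under the membrane, in which spectrin is tied to short actin filaments. Band 3, the chloride and bicarbonate exchanger, anchors that network through ankyrin, while adducin, dematin and tropomodulin hold the actin junctions. Blood group antigens are carried on membrane proteins, among them the Rh protein, which sits in a complex with its partner glycoprotein Rhag, and Kell, a zinc endopeptidase linked to Xk. Mature red cells have no nucleus, so red cell transcripts in blood come mainly from reticulocytes, the young cells just released from the marrow.

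Whole blood RNA came from adult male rats of the inbred strains WKY (Wistar Kyoto) and F344 (Fischer), aged 70 to 90 days. The 4 groups of 3 libraries were WKY after chronic restraint stress (CRS), WKY without stress (NS), F344 after CRS and F344 without stress. CRS rats were held in restraint bags for 2 hours a day over 2 weeks, and NS rats stayed undisturbed in the home cage. Every group, the unstressed rats included, had gone through contextual fear conditioning 4 weeks before that period and through a second fear test after it, and was killed 24 hours after the second test. The strain comparison asked how red cell membrane transcripts differed between WKY and F344, and the treatment comparison how they differed after restraint. The labels do not tie libraries to individual rats, and the spread behind each p-value is that among the libraries, which may be technical in part.

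Levels are given as CPM (gene counts scaled to a common library total), with totals adjusted by the trimmed mean of M values (TMM). Genes received 1691956 to 3846263 counts per library, of which 88.9% to 94.6% fell on 3 features (Rn5-8s, LOC257642 and LOC310926). The remaining genes had 90796 to 419789 counts in a library, and 1 count was worth 0.260 to 0.591 CPM before TMM scaling. F344 NS replicates 2 and 3 had the lowest TMM factors of the 12 libraries, 0.625 and 0.521, and 195564 and 90796 counts outside those features. Results that rest on them are given with and without both. At least 1 other library, WKY NS replicate 3 with 170507 such counts, was as shallow as F344 NS replicate 2. Levels were not compared between genes, because the files give no transcript lengths.

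Rhd, which encodes the Rh membrane protein, was lower in WKY than in F344 blood. In WKY CRS replicates 1, 2 and 3 Rhd stood at 4.31, 4.75 and 5.88 CPM, and in WKY NS at 5.03, 6.19 and 4.996 CPM. In F344 CRS it stood at 13.04, 17.6 and 10.1 CPM, and in F344 NS at 7.40, 17.0 and 17.0 CPM. All 6 WKY libraries lay below all 6 F344 libraries, as they did for 0.935% of the 2781 tested genes. The nearest libraries were WKY NS replicate 2 at 6.19 CPM and F344 NS replicate 1 at 7.40 CPM.

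The Rhd counts behind these levels were small. They were 17, 11 and 18 in WKY CRS, 22, 19 and 13 in WKY NS, 65, 52 and 50 in F344 CRS, and 27, 28 and 15 in F344 NS. Without TMM scaling the strains still did not overlap, with 3.92 to 7.004 CPM over the 6 WKY libraries and 8.87 to 19.97 CPM over the 6 F344 libraries. Of all tested genes, 0.575% were lower in all 6 WKY libraries on that scale.

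**Figure D1:**
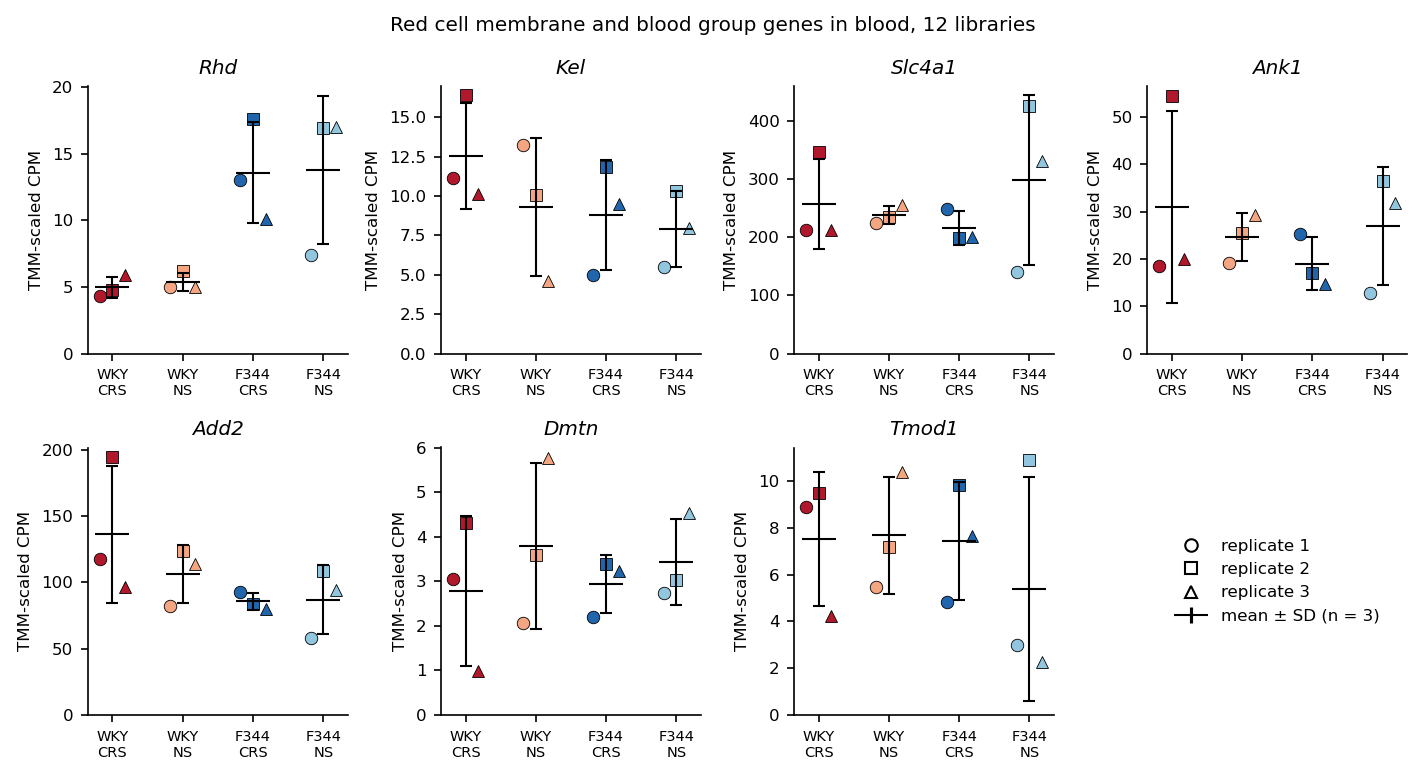
TMM-scaled CPM of each of the 7 genes in the 12 libraries (vertical axes), by group from WKY CRS to F344 NS (horizontal axes), with points for libraries and bars for group means and SD. Rhd ran from 4.31 to 6.19 CPM in WKY and from 7.40 to 17.6 CPM in F344, whereas the strains overlapped for the other 6 genes.

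Averaged over both treatments, the edgeR quasi-likelihood test gave Rhd a log2 fold change of -1.34 (SE 0.26, 95% interval -1.87 to -0.81), which is 2.53-fold lower in WKY. Its p-value adjusted over all 2781 genes by the Benjamini-Hochberg method was 0.00106, against a threshold of 0.05. Rhd was the 1 gene of the 7 that passed in either direction, where 3.74% of all tested genes passed, 2.12% as higher and 1.62% as lower in WKY.

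The strain difference was estimated under each treatment as well. After CRS, Rhd averaged 4.98 ± 0.81 CPM in WKY and 13.6 ± 3.81 CPM in F344 (SD, n = 3 each). That difference was log2 -1.43 (SE 0.36, edgeR adjusted p = 0.0260), in a comparison where 1.4% of tested genes passed, 0.719% as lower in WKY. Without stress, Rhd averaged 5.40 ± 0.68 CPM in WKY and 13.8 ± 5.55 CPM in F344 (SD, n = 3 each). That difference of log2 -1.25 (SE 0.38, 95% interval -2.02 to -0.47) did not pass (edgeR adjusted p = 0.129), where 0.683% of tested genes did, 0.36% as lower in WKY. The unstressed strains did not overlap for Rhd, as for 6.33% of tested genes with WKY lower, and the stressed strains did not, as for 10% of them. The change in the strain difference with stress, tested as an interaction, was log2 -0.18 (95% interval -1.24 to 0.88, edgeR adjusted p = 0.993), so the estimates under CRS and without stress were not shown to differ.

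The call averaged over treatments held in 12 of 12 fits that left out 1 library (log2 -1.53 to -1.18, highest edgeR adjusted p = 0.0108). It was lost without both F344 NS replicates 2 and 3 (log2 -0.92, adjusted p = 0.126), where F344 NS replicate 1 stands alone and its spread is taken from the other groups, and with library totals in place of TMM scaling (log2 -1.29, adjusted p = 0.0667). The call after CRS ended in more of the alternatives. It was lost on leaving out F344 CRS replicate 1 (edgeR adjusted p = 0.0820), F344 CRS replicate 2 (0.226), WKY CRS replicate 1 (0.160) or WKY CRS replicate 2 (0.105). It also missed the threshold with library totals (adjusted p = 0.120) and in the DESeq2 Wald test (0.0573). The unstressed difference rested largely on F344 NS replicates 2 and 3. Without both it was log2 -0.41 (SE 0.46, edgeR adjusted p = 0.944), and with library totals it was log2 -0.76 (adjusted p = 0.963). Without F344 NS replicate 1 it passed (log2 -1.63, adjusted p = 0.0236).

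**Figure D2:**
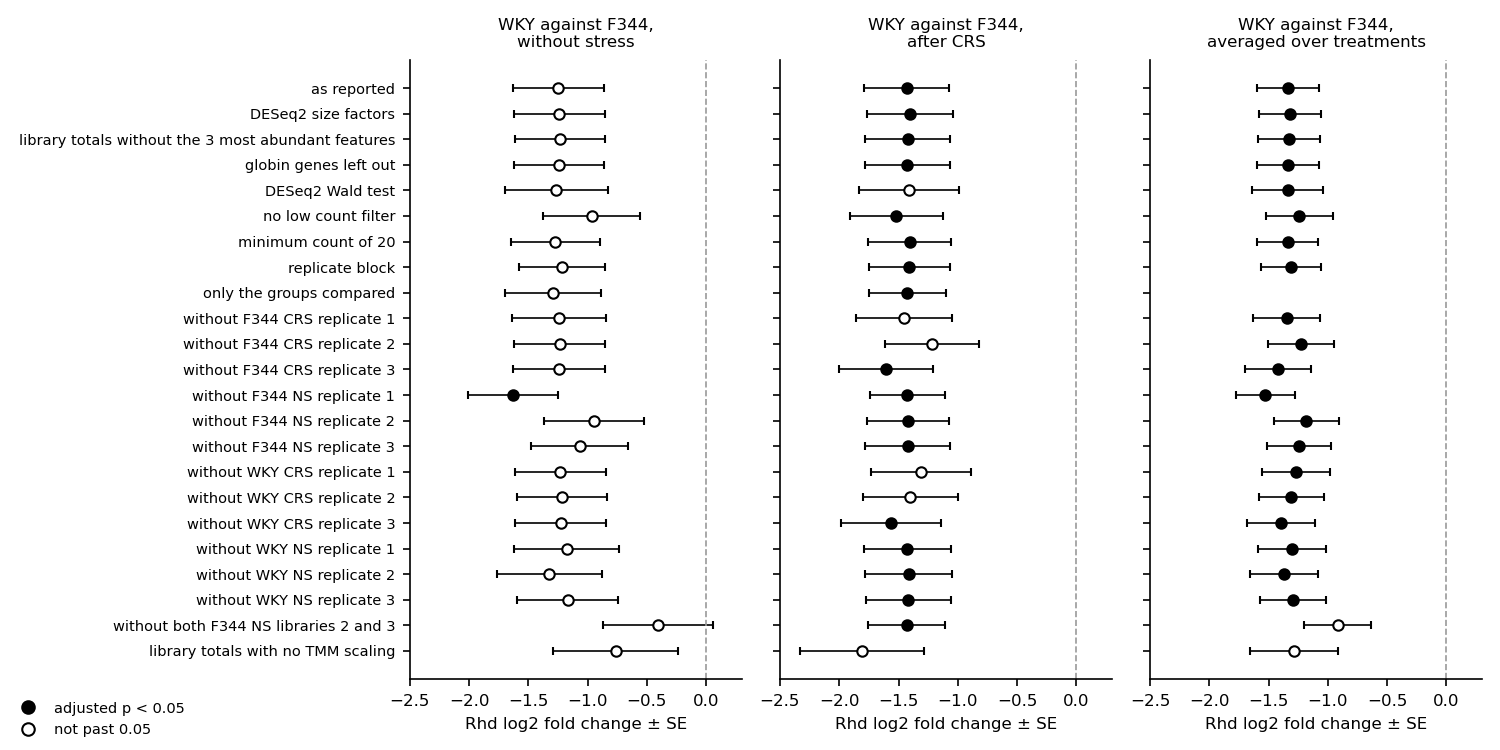
Log2 fold change of Rhd, WKY over F344 (horizontal axes), without stress, after CRS and averaged over treatments, as reported and under each alternative (vertical axis), with bars of 1 SE and filled points where the adjusted p was under 0.05. Every estimate was below 0, and in the averaged panel they ran from -1.53 to -0.92, the value without F344 NS replicates 2 and 3.

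The summed levels of red cell lists overlapped between the strains under each treatment, except those of 20 other listed blood group genes after CRS. These 20 genes summed to 95.3 to 108 CPM in WKY CRS and 79.6 to 88.5 in F344 CRS. Taken singly, 19.6% of tested genes did not overlap between the stressed strains in either direction. Much of the gap in these sums was that of Aqp1, which averaged 50.2 CPM in WKY CRS and 35.5 in F344 CRS. Without stress the sums of the 20 genes overlapped, at 95.6 to 105 CPM in WKY NS and 67.4 to 114 in F344 NS. Reticulocyte genes summed to 1204 to 1521 CPM in WKY CRS, 1044 to 1218 in WKY NS, 1150 to 1468 in F344 CRS and 909 to 1895 in F344 NS. The 7 genes together summed to 349 to 632 CPM in WKY CRS, 351 to 425 in WKY NS, 325 to 392 in F344 CRS and 229 to 613 in F344 NS. In bulk blood, fewer cells of a type and less RNA per cell cannot be told apart.

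Marker lists of some other blood cells also differed between the strains. In the comparison averaged over treatments, from which the calls on these lists come, 2.12% of all tested genes passed as higher and 1.62% as lower in WKY. The 10 monocyte genes summed to 120 to 166 CPM in WKY CRS and 119 to 133 in WKY NS. They summed to 78.0 to 83.7 CPM in F344 CRS and 57.9 to 69.6 in F344 NS. Lyz2 alone averaged 118 CPM in WKY CRS, 97.7 in WKY NS, 60.9 in F344 CRS and 47.5 in F344 NS. Most of the monocyte sum was therefore 1 gene. Of 4 tested monocyte genes 2 passed as higher in WKY, Lyz2 among them. The 15 T cell genes summed to 38.0 to 52.7 CPM in WKY CRS and 46.5 to 48.9 in WKY NS, against 57.0 to 64.9 in F344 CRS and 57.6 to 77.3 in F344 NS, and 1 of 11 tested passed as lower. Of the 12 platelet genes in the files 9 were tested, and 3 passed as higher in WKY. Platelet sums ran from 115 to 195 CPM in WKY CRS, 64.9 to 134 in WKY NS, 99.9 to 111 in F344 CRS and 49.7 to 83.6 in F344 NS. Neutrophil and B cell sums overlapped between the strains. The platelet gene Gp1bb and the T cell gene Il7r had 0 counts in every library. The part of these lists in the Rhd result was not tested.

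Rhd was also expressed as a share of the counts of all 7 genes, which does not depend on the scaling of the libraries. This measure was chosen after the values were seen. Slc4a1 and Add2 made up most of the sum, so the share mainly sets Rhd against them. Slc4a1 took 55.0% to 63.9% in WKY and 58.1% to 69.6% in F344. Add2, whose estimate was higher in WKY, took 23.3% to 31.3% in WKY and 17.7% to 25.4% in F344. Rhd took 1.15%, 0.751% and 1.68% in WKY CRS and 1.43%, 1.51% and 1.18% in WKY NS. It took 3.32%, 5.14% and 3.10% in F344 CRS and 3.23%, 2.77% and 3.49% in F344 NS. The highest WKY share, 1.68% in CRS replicate 3, had a 95% Wilson interval of 1.07% to 2.64%. The lowest F344 share, 2.77% in NS replicate 2, had an interval of 1.92% to 3.98%, so the intervals of these libraries overlapped. The strains again did not overlap, and relative to the same sum 1.47% of all tested genes were lower in all 6 WKY libraries. F344 NS replicate 3 had a share inside the range of the other F344 libraries, and replicate 2 was the lowest of the 6.

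**Figure D3:**
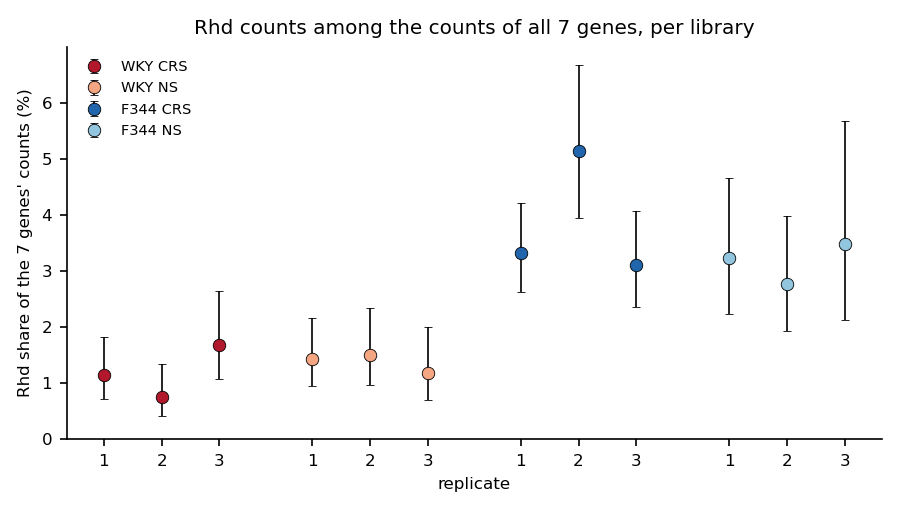
Rhd counts as a percentage of the summed counts of the 7 genes (vertical axis) in each of the 12 libraries, grouped from WKY CRS to F344 NS, with 95% Wilson intervals for counting error. WKY libraries lay between 0.751% and 1.68% and F344 libraries between 2.77% and 5.14%.

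Rhd is annotated on chromosome 5 (gene ID 60414, with Rh and Rhced as synonyms), between Maco1 and Tmem50a. In the RefSeq annotation of build GRCr8 it overlaps the long noncoding RNA LOC134487008. The files were made on build rn6, so only names, neighbours and promoter sequence were taken from GRCr8. The strand setting of the counting is not given in the sources used here, so reads from overlapping genes cannot be told apart.

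Promoter sequence was shown for Rhd, the gene that passed, and for Add2, the gene with the next smallest p-value between strains. Both are 250 bases before the RefSeq gene start (build GRCr8, plus strand), at chr5:152370950-152371199 for Rhd and chr4:120054628-120054877 for Add2. Capitals mark AGATAA, letters bound by GATA factors, and CACCC, letters bound by Kruppel-like factors, on either strand (TTATCT and GGGTG on the reverse), and these motifs do not overlap each other here.
Rhd: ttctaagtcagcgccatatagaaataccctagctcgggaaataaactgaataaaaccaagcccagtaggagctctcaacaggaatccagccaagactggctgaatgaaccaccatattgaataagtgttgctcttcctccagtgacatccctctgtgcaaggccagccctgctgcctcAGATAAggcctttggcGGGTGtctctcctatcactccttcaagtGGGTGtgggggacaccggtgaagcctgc
Add2: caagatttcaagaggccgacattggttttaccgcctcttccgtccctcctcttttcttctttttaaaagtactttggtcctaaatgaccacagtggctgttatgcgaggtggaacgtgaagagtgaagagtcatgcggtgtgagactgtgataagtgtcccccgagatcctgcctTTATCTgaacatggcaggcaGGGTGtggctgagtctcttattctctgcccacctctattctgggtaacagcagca
In Rhd, AGATAA began 72 bases before the start, and GGGTG 56 and 28 bases before it. In Add2, TTATCT began 75 bases before the start and GGGTG 55 bases before it. Of 33469 promoters searched over the same 250 bases, 10.3% held AGATAA, 49.2% held CACCC and 3.77% held both. RefSeq promoters were matched for 4 of the 7 genes. Kel held neither motif as spelled here, and Tmod1 held CACCC at 5 places and no AGATAA. Other spellings of these sites were not searched. A match is a run of letters only, and strain differences in these bases were not analysed here.

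Kel, the other blood group gene, encodes the Kell endopeptidase. It stood at 11.2, 16.4 and 10.1 CPM in WKY CRS and at 13.3, 10.1 and 4.61 CPM in WKY NS. In F344 it stood at 5.01, 11.9 and 9.48 CPM after CRS and at 5.48, 10.3 and 7.94 CPM without stress. The strains overlapped under both treatments, and WKY NS replicate 3 was the lowest of the 12 libraries. The strain difference of log2 0.43 (SE 0.27, 95% interval -0.12 to 0.99) did not pass (edgeR adjusted p = 0.4997). Its estimate was therefore opposite in sign to that of Rhd, although the difference between the genes was not tested.

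Rhag, Xk, Gypc and Icam4 were too low to be tested. Rhag, the glycoprotein that carries Rh to the membrane, had 7 counts in all over WKY CRS, 9 over WKY NS, 17 over F344 CRS and 7 over F344 NS. Xk, the partner of Kell, had 10 counts over the 12 libraries, Gypc, a glycophorin that ties the membrane to protein 4.1, had 45, and Icam4, an adhesion molecule that carries the LW antigen, had 4. Strain differences in these genes were not tested at this depth.

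Add2 encodes beta-adducin, which caps actin and recruits spectrin to the junctions. It stood at 118, 195 and 96.3 CPM in WKY CRS and at 81.9, 123 and 114 CPM in WKY NS. In F344 it stood at 93.1, 84.1 and 80.2 CPM after CRS and at 58.4, 109 and 94.2 CPM without stress. After CRS all 3 WKY libraries lay above all 3 F344 libraries, as in either direction for 19.6% of tested genes, led by WKY CRS replicate 2. Without stress the strains overlapped.

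The strain difference of Add2 averaged over treatments was log2 0.48 (SE 0.22, 95% interval 0.044 to 0.92) and did not pass (edgeR adjusted p = 0.270). After CRS it was log2 0.66 (SE 0.30, edgeR adjusted p = 0.397), and it ran from 0.32 to 0.87 over the fits that left out 1 library. Add2 and Rhd were the 2 genes with an unadjusted p under 0.05 in the comparison averaged over treatments, in which 411 of the 2781 genes had one.

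**Figure D4:**
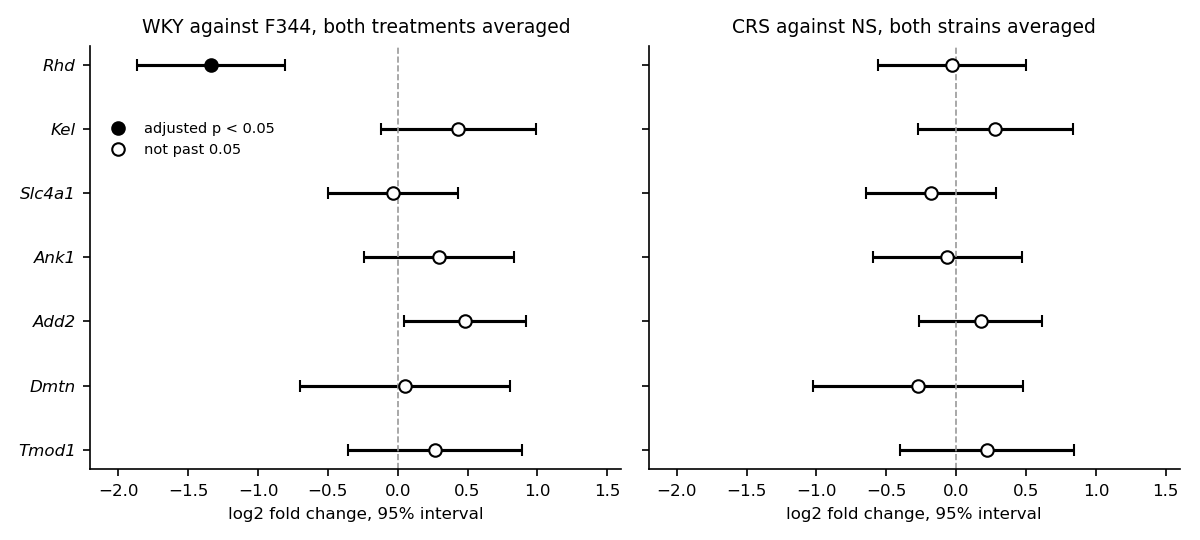
Log2 fold changes of the 7 genes (horizontal axis) for WKY over F344 averaged over treatments and for CRS over NS averaged over strains, with 95% intervals. The interval of Rhd in the strain comparison runs from -1.87 to -0.81, and the intervals of all 7 genes for CRS include 0.

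Slc4a1 encodes band 3, and Ank1 encodes the ankyrin that ties band 3 to spectrin. Slc4a1 stood at 212, 347 and 212 CPM in WKY CRS and at 224, 235 and 256 CPM in WKY NS. In F344 it stood at 249, 199 and 200 CPM after CRS and at 139, 426 and 330 CPM without stress. The 3 F344 NS libraries spanned the range of all the others, with replicate 1 the lowest and replicate 2 the highest of the 12.

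Ank1 had the same extremes among the F344 NS libraries. It stood at 18.5, 54.4 and 19.9 CPM in WKY CRS and at 19.2, 25.4 and 29.2 CPM in WKY NS. In F344 it stood at 25.3, 17.0 and 14.7 CPM after CRS and at 12.9, 36.4 and 31.8 CPM without stress. For both genes F344 NS replicate 1 was the lowest library, and F344 NS replicates 2 and 3 and WKY CRS replicate 2 were the highest 3. Pearson's r of log2 levels between Slc4a1 and Ank1 was 0.90 over the 12 libraries, the highest of the 21 pairs among the 7 genes. The libraries share depth and TMM scaling, so this r is a description. In RefSeq, Ank1 overlaps the noncoding LOC120097525 and the protein-coding LOC134482520, so some of its reads may belong to them.

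**Figure D5:**
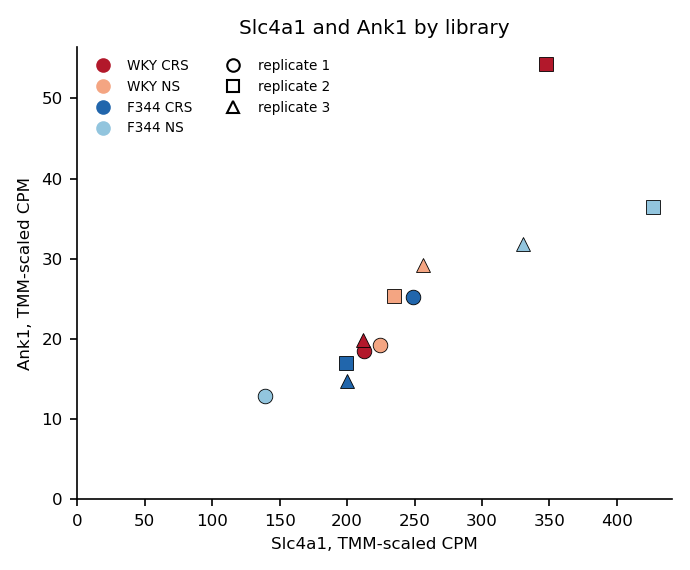
Ank1 level (vertical axis) against Slc4a1 level (horizontal axis), both in TMM-scaled CPM, for the 12 libraries by group. F344 NS replicate 1 lies at the low end (139 and 12.9 CPM), and F344 NS replicates 2 and 3 and WKY CRS replicate 2 lie at the high end.

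Neither gene differed past the threshold between strains. The averaged difference was log2 -0.035 for Slc4a1 (95% interval -0.50 to 0.43, edgeR adjusted p = 0.973) and log2 0.30 for Ank1 (95% interval -0.24 to 0.83, adjusted p = 0.673). The unstressed difference of Slc4a1 was log2 -0.32, and it was 0.82 without F344 NS replicates 2 and 3, with F344 NS replicate 1 as the lone library of its group.

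Dmtn encodes dematin, an actin-bundling protein, and Tmod1 encodes tropomodulin, which caps the slow-growing end of the actin filaments. Dmtn had 3 to 16 counts per library and ran from 0.979 to 5.76 CPM in WKY and from 2.21 to 4.54 CPM in F344. Tmod1 ran from 4.24 to 10.4 CPM in WKY and from 2.27 to 10.9 CPM in F344. The strains overlapped for both genes. The strain difference was log2 0.049 for Dmtn (95% interval -0.70 to 0.80, edgeR adjusted p = 0.977) and log2 0.27 for Tmod1 (95% interval -0.36 to 0.89, adjusted p = 0.769). Tmod1 overlaps Tstd2 in RefSeq, and the 2 counts of Tmod1 in F344 NS replicate 3 were its lowest.

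Over the 7 genes, 5 had positive and 2 negative log2 fold changes in WKY, with a median of 0.27, against a median of -0.0088 over all tested genes. The 2 negative estimates were those of Rhd, which passed, and Slc4a1 (log2 -0.035, 95% interval -0.50 to 0.43), which did not. The 7 estimates did not share 1 sign, and whether the genes differed in direction was not tested.

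Restraint was compared with no stress within each strain and averaged over strains. None of the 7 genes passed in any of these edgeR comparisons, and none had an unadjusted p under 0.05. In F344 0% of the 2781 tested genes passed (131 had an unadjusted p under 0.05, and DESeq2 called 0), and in WKY 0% passed (161 had one, and DESeq2 called 0). Averaged over strains 0.036% passed, which is 1 gene, and DESeq2 called 3. The CRS and NS libraries of the same strain overlapped for all 7 genes in both strains, where they did not overlap for 11.9% of all tested genes in F344 and 10% in WKY.

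The averaged effects of CRS ran from log2 -0.27 for Dmtn to 0.28 for Kel (edgeR adjusted p = 0.938 to 0.992 over the 7 genes), with a median of -0.029 against 0.0026 over all tested genes. For Rhd the effect was log2 -0.029 (95% interval -0.56 to 0.50). For Slc4a1 it was log2 -0.18 (95% interval -0.64 to 0.29), and for Ank1 log2 -0.063 (95% interval -0.60 to 0.47). The misses do not show that the genes were unaffected, since the intervals reach -1.02 for Dmtn and 0.84 for Tmod1 and Kel.

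Within F344, the estimates for Slc4a1 (log2 -0.46, edgeR adjusted p = 0.975) and Ank1 (log2 -0.44, adjusted p = 0.996) were negative after CRS. Without F344 NS replicates 2 and 3 they were positive, at log2 0.70 and 0.64. That fit leaves F344 NS replicate 1 alone in its group, the lowest of the 12 libraries for both genes. Their direction therefore depended on which F344 NS libraries were kept. Over the fits that left out 1 library, Slc4a1 ran from log2 -0.79 to -0.061 and Ank1 from -0.82 to -0.036. Within WKY the estimates were log2 0.11 for Slc4a1 and 0.31 for Ank1 (adjusted p = 0.975 for both). The interaction of strain and restraint did not pass for any of the 7 genes (edgeR adjusted p = 0.993 for each), in a comparison where 0% of tested genes passed, 106 had an unadjusted p under 0.05 and DESeq2 called 0. Its widest interval was that of Dmtn, from -1.79 to 1.20.

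Other red cell gene lists were described beside the 7 genes. Of 17 further membrane skeleton genes, 14 were in the files and 11 were tested. None of these 11 passed between strains, where 3.74% of all tested genes did, or after CRS, where 0.036% did. Their median log2 fold change was -0.068 for strain and -0.14 for CRS, where all tested genes had -0.0088 and 0.0026. For CRS 3 of the 11 had positive and 8 had negative estimates, and between strains 5 were positive and 6 negative. Stom, which encodes the membrane protein stomatin, had log2 0.71 after CRS (SE 0.24, edgeR adjusted p = 0.495). Add1 had log2 -0.29 after CRS (SE 0.22, edgeR adjusted p = 0.921). Kcnn4, the Gardos potassium channel, had log2 -0.63 in WKY (SE 0.30, adjusted p = 0.296).

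Of 21 other genes listed for blood groups, 20 were in the files and 8 were tested. None of these 8 passed between strains, where 3.74% of all tested genes did, or after CRS, where 0.036% did. Their median was 0.28 for strain and 0.089 for CRS. For CRS 5 of the 8 had positive and 3 had negative estimates, and between strains 6 were positive and 2 negative. Cd47, a surface signal that restrains phagocytosis, had log2 0.60 in WKY (SE 0.30, edgeR adjusted p = 0.343). Bsg, which encodes basigin, the carrier of the Ok antigen, had log2 -0.86 after CRS (SE 0.31, adjusted p = 0.495). Bsg averaged 3.50 CPM in F344 CRS and 9.96 ± 6.64 in F344 NS (SD), against 4.61 in WKY CRS and 5.32 in WKY NS. Cd59 had log2 0.61 after CRS (SE 0.42, edgeR adjusted p = 0.872).

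All 14 erythroid regulators were in the files, and 11 were tested. None of these 11 passed between strains, where 3.74% of all tested genes did, or after CRS, where 0.036% did. Their medians were -0.24 for strain and 0.039 for CRS. For CRS 6 of the 11 had positive and 5 had negative estimates, and between strains 4 were positive and 7 negative. Foxo3 had log2 -0.28 after CRS (SE 0.26, edgeR adjusted p = 0.938). Tal1, a transcription factor of red cell precursors, had log2 0.78 after CRS (SE 0.31, edgeR adjusted p = 0.583). Ldb1, which bridges such factors, had log2 -0.46 in WKY (SE 0.22, adjusted p = 0.324).

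Of 25 reticulocyte genes in the files 19 were tested. None of these 19 passed after CRS, where 0.036% of all tested genes did. Their median log2 fold change was 0.059 for strain and 0.064 for CRS, where all tested genes had -0.0088 and 0.0026. Between strains 10 of the 19 had positive and 9 had negative estimates in WKY. Slc25a37, which encodes a mitochondrial iron importer, had log2 0.59 in WKY (SE 0.23, edgeR adjusted p = 0.163). Fech, another gene of the list, had log2 -0.48 in WKY (SE 0.22, edgeR adjusted p = 0.288). Fbxo7, a subunit of a ubiquitin ligase, had log2 0.42 after CRS (SE 0.29, adjusted p = 0.882).

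Of 5 tested globin genes 1 passed between strains, where 1.62% of all tested genes passed as lower in WKY. This was Hbb-b1, a beta-globin copy, which was lower in WKY. It averaged 510 ± 59.1 CPM in WKY CRS, 503 ± 206 in WKY NS, 1837 ± 452 in F344 CRS and 1420 ± 404 in F344 NS (SD, n = 3 each), a strain difference of log2 -1.67 (SE 0.24, edgeR adjusted p = 1.25e-05). Globin genes are near-identical copies, so reads can be split between them and a single copy is uncertain. Between strains the other globin genes ran from log2 -1.12 for Hba1 to 0.36 for LOC689064, and none of them passed. After CRS the 5 globin genes had positive fold changes, from log2 0.0073 for LOC287167 to 0.40 for Hbb. None passed, where 0.036% of all tested genes did.

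By Pearson's r with the mean standardised log2(CPM + 1) of the 7 genes over the 12 libraries, the genes most like them among 2723 others were Cdyl (0.90), Wbp2 (0.86), Map2k3 (0.85), Fam214b (0.85) and Bsdc1 (0.84). The libraries share depth and scaling in these values too. Rhd itself had r of -0.34 to 0.27 with the other 6 genes.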

How the data were processed

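Blood RNA libraries were sequenced on the Ion Proton, per the labels' protocols. The deposited values are whole-number read counts per gene, with no scaling. Per the submitters' processing notes, the build was rn6 and the tools were Cufflinks 2.2.1, TopHat2 2.1.0 and cutadapt 1.14, with no role for each. How reads were assigned to genes, and whether by strand, is not given in the sources used here. Groups came from the titles and the strain and treatment labels. Each file's 5 entries that name no gene took 80.9% to 86.6% of all counts (ambiguous reads 78.3% to 83.6%) and stayed out of library sizes and tests.

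Counts were tested with edgeR 4.0.16 (limma 3.58.1, R 4.3.3) by the quasi-likelihood test with TMM scaling on all 12 libraries in 1 fit of 4 group means, after filterByExpr with a minimum count of 10, which kept 2781 genes. P-values were adjusted by the Benjamini-Hochberg method over all of them. The step was tested on simulated data. Each SE was derived from the F statistic. Wilson intervals are at 95% and cover counting error only, since reads are not independent molecules.

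Alternatives were DESeq2 1.42.0 size factors and its Wald test, no and stricter low count filters, library totals without the 3 most abundant features, removal of globin genes, a replicate block, fits of the compared groups alone, leaving out each library, and leaving out F344 NS replicates 2 and 3. Library totals without TMM were added after the data were seen. The 7 genes and the other lists were chosen with earlier results of these data known. All 7 genes are named. Of each other red cell list, up to 2 tested members per direction with the smallest p in an averaged comparison could be named, and some of these are given. Likeness used 12 libraries and a pseudocount of 1 CPM. One gene of the reticulocyte list is not reported here between strains.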

Additional observations from a re-analysis of the deposited data

How the results depend on the processing

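Counts were few, so differences under about the reported intervals were not detectable. A value is called reversed here where its sign changed by more than 1 SE; no value past the threshold reversed, and the causes of the changes below were not tested.

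With no low count filter, genes called were 5 for CRS in F344, 8 for CRS in WKY, 6 for CRS averaged over strains and 3 for the strain difference in the CRS response. Add2 then had log2 0.41 for CRS in F344, and Slc4a1 had 0.063 for averaged CRS and 0.010 between unstressed strains. The DESeq2 Wald test called 3 genes for averaged CRS and 0 of the 7 members between strains after CRS (Rhd log2 -1.41). Fitting only the compared groups gave 9 calls between unstressed strains. Same-numbered libraries had correlations of -0.093 to 0.21 over 18 pairs. As only 4 of them were over 0.1 and the labels tie no number to a shared batch, the numbers were not taken to pair the libraries, although 8 of 12 libraries correlated best with their own number, a hint of pairing from the data. The replicate block gave 2 calls for averaged CRS. Between strains Rhd then had log2 -1.31 averaged over treatments (edgeR adjusted p = 0.000718), -1.41 after CRS (0.0185) and -1.21 without stress (0.107).

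Without F344 NS replicates 2 and 3, calls were 0 for averaged CRS, 5 between unstressed strains, 43 between strains averaged over treatments (0 of the 7 members, Rhd log2 -0.92) and 1 for the strain difference in the CRS response. For CRS in F344, Add2 had log2 0.63, Slc4a1 0.70 and Ank1 0.64. For averaged CRS, Rhd had 0.41, Slc4a1 0.42, Ank1 0.49 and Slc25a37 0.27. Between unstressed strains Slc4a1 had 0.82 and Ank1 0.97, and between strains averaged, Slc4a1 had 0.53 and Bsg 0.17. For the strain difference in the CRS response, Add2 had -0.24, Slc4a1 -0.56 and Ank1 -0.29. Slc25a37, a mitochondrial iron importer, passed between strains (log2 1.02, edgeR adjusted p = 0.0367).

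With library totals and no TMM scaling, chosen after seeing the data, the median of all genes moved to log2 0.50 for CRS in F344, -0.22 for CRS in WKY, 0.13 for averaged CRS, 0.31 between unstressed strains, -0.39 between strains after CRS and -0.75 for the strain difference in the CRS response. Relative to that median, Rhd had -1.07 without stress, -1.42 after CRS and -1.24 averaged. Calls were 0 for averaged CRS, 8 between unstressed strains, 13 between strains after CRS (0 members, Rhd log2 -1.81), 30 between strains averaged (0 members, Rhd log2 -1.29) and 3 for the strain difference in the CRS response. For CRS in F344, Add2 had 0.67, Slc4a1 0.35 and Ank1 0.33. For averaged CRS, Slc4a1 had 0.11 and Slc25a37 0.074. Between unstressed strains Slc4a1 had 0.29 and Ank1 0.45, and after CRS Slc4a1 had -0.20. For the strain difference in the CRS response, Kel had -0.62, Add2 -0.53, Slc4a1 -0.49 and Ank1 -0.27.

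Over fits leaving out 1 library, calls ran from 0 to 5 for CRS in F344, 0 to 2 for CRS in WKY, 0 to 5 for averaged CRS, 5 to 44 between unstressed strains, 18 to 46 between strains after CRS, 60 to 134 averaged and 0 to 2 for the strain difference in the CRS response. Members called ran from 0 to 1 between unstressed strains and 0 to 1 after CRS. Rhd ran from log2 -1.63 to -0.95 without stress, -1.60 to -1.22 after CRS and -0.32 to 0.37 for CRS in F344. Tmod1 ran from -0.019 to 1.39 for CRS in F344, and Ank1 from -0.33 to 0.60 for CRS in WKY. Between unstressed strains Slc4a1 ran from -0.65 to 0.069 and Ank1 from -0.47 to 0.31, and averaged, Ank1 from -0.019 to 0.50 and Bsg from -0.47 to 0.11.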
